A study of Mus musculus with 6 samples.

Results

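The genes described here encode aminoacyl-tRNA synthetases, the enzymes that join each amino acid to its tRNA. They were listed by name, with earlier results of these data known, as 36 gene symbols, of which 20 stand for enzymes of the cytosol and 16, with names ending in 2, for enzymes of the mitochondrion. All 36 had a row among the 54532 genes of the expression table. All 36 also passed the filter used for testing, a mean of at least 1 FPKM over the 6 libraries. FPKM stands for fragments per kilobase of transcript, scaled to the mapped fragments of a library. The deposited values had median-of-ratios factors of 1 in all 6 libraries, so they were not scaled to mapped fragments alone.

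The libraries were made from total RNA of a mouse culture labelled MIN6, a pancreatic beta-cell line that came from an insulinoma. In 3 control libraries, titled shc 1 to 3, the genotype is given as control, and in 3 libraries titled sh2 1 to 3 it is given as PP2Ac knockdown. PP2Ac is the catalytic part of protein phosphatase 2A, which removes phosphate from serine and threonine of many proteins, and its alpha form is encoded by Ppp2ca. The labels name no other allele, agent, dose or time for either group, and do not say whether the hairpin-carrying cells were a clone or a pool. Nothing in the labels says that the 3 libraries of a group came from separate cultures, so the p-values measure the spread between these libraries, which may be technical. Ppp2ca stood at 42.5, 34.6 and 35.6 FPKM in the controls and at 10.1, 11.4 and 10.9 in the knockdown libraries, that is 28.7% of the control mean (limma adjusted p = 5.35e-06). Most transcripts that define the labelled cell type were at or near 0: of 10 beta-cell markers, 8 had a mean below 1 FPKM, and Ins1, Ins2, Nkx6-1 and Slc2a2 were listed at 0 in all 6 libraries. The other 2 were low and rose, Pdx1 from 1.68 ± 0.499 to 3.96 ± 0.309 FPKM and Mafa from 1.78 ± 0.435 to 4.86 ± 0.854 (mean ± SD over the 3 libraries of a group).

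In the cytosol, synthetases charge tRNAs for translation on cytosolic ribosomes, and 8 of them are held with 3 scaffold proteins in the multisynthetase complex. The mitochondrion translates its own small set of respiratory chain proteins and uses a separate, nuclear-encoded set of synthetases that are imported from the cytosol. Gars and Kars serve both compartments from a single gene, and for glutamine the mitochondrion has no enzyme of its own: Ears2 first loads glutamate, which an amidotransferase then converts. Many cytosolic synthetase genes are known as targets of ATF4, a transcription factor whose translation rises when uncharged tRNA or other stresses activate the integrated stress response.

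Cytosolic synthetase transcripts were lower in the knockdown libraries for most amino acids, while the mitochondrial set was divided. Of the 20 cytosolic genes, 13 fell, 3 rose and 4 did not pass the test (limma on log2(FPKM + 1), with Benjamini-Hochberg adjusted p below 0.05 over all 11652 genes tested). The deepest falls were in Lars, Wars, Nars and Yars, each to less than 50% of its control mean. Among the 16 mitochondrial genes, 4 fell (Lars2, Mars2, Tars2 and Rars2), 4 rose (Sars2, Cars2, Iars2 and Aars2) and 8 did not pass. These counts stand against a contrast in which 62.4% of all tested genes were called, 33.3% higher and 29.1% lower. The cytosolic share called lower was 65.0%, and the mitochondrial share was 25.0%, which is near that background.

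**Figure D1:**
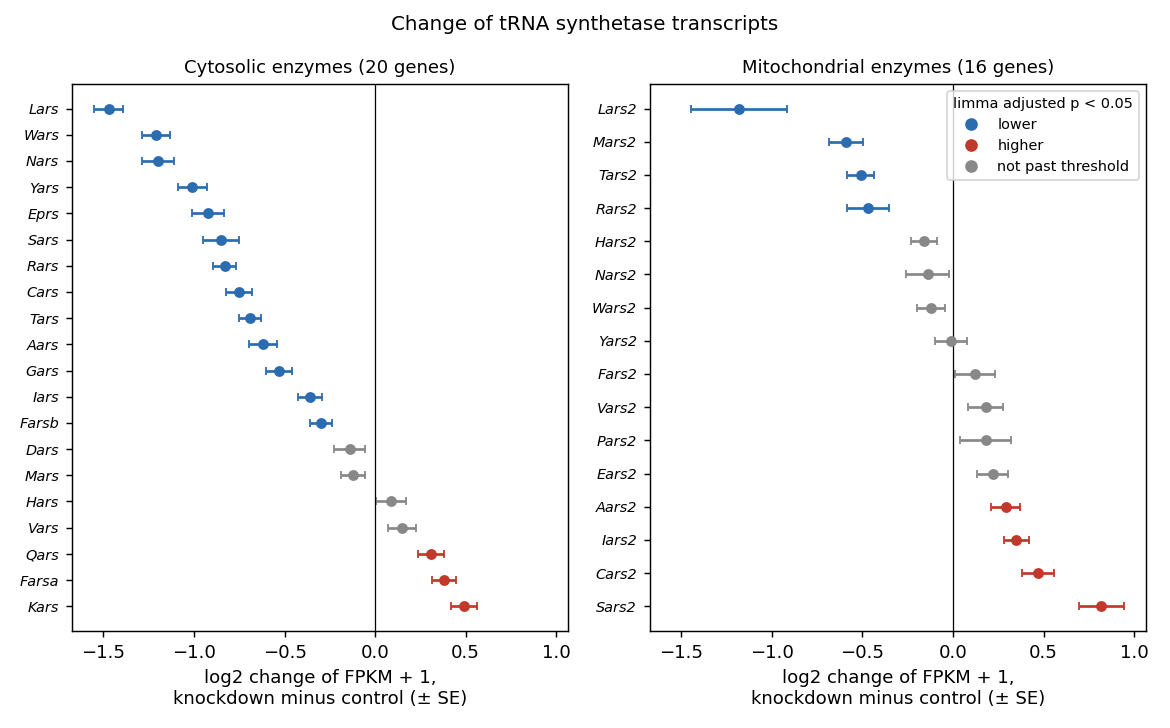
Log2 change of FPKM + 1 (x axis, knockdown minus control, bars ± SE of the limma fit) for each of the 20 cytosolic and 16 mitochondrial enzymes (y axis, one gene a line), coloured by whether limma's adjusted p was below 0.05. Most cytosolic genes lie left of 0, from -1.47 for Lars to 0.49 for Kars, and the mitochondrial genes lie on both sides, from -1.18 for Lars2 to 0.82 for Sars2.

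The median log2 change was -0.57 over the cytosolic genes and 0.05 over the mitochondrial genes, beside 0.03 over all genes tested. A fall of at least 1 on the log2 scale was called in 4 cytosolic genes and 1 mitochondrial gene, against 4.81% of all tested genes. The 2 groups of libraries did not overlap for 17 of the 20 cytosolic and 12 of the 16 mitochondrial genes, and over all tested genes that share was 68.1%. FPKM here is scaled to a gene length that runs from 0.959 to 3.80 times the longest coding transcript in GENCODE M21, so levels of different genes, and their sums, depend on that length. The 20 cytosolic genes summed to 1949.2, 1856.8 and 1770.4 FPKM in the controls and to 1210.5, 1198.5 and 1197.8 in the knockdown libraries, so that the knockdown mean was 64.7% of the control mean (67.5% per length of the coding transcript). The 16 mitochondrial genes summed to 161.7, 153.9 and 141.7 FPKM against 119.8, 138.7 and 117.0, or 82.1% (75.8% per length of the coding transcript). Neither sum overlapped between the groups, but the mitochondrial fall was that of Lars2, which made up 50.2 of 152.4 FPKM in control. Without Lars2 the sums were 100.5, 103.2 and 103.0 FPKM against 101.1, 105.6 and 101.7, or 100.5% of control, and the groups overlapped.

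**Figure D2:**
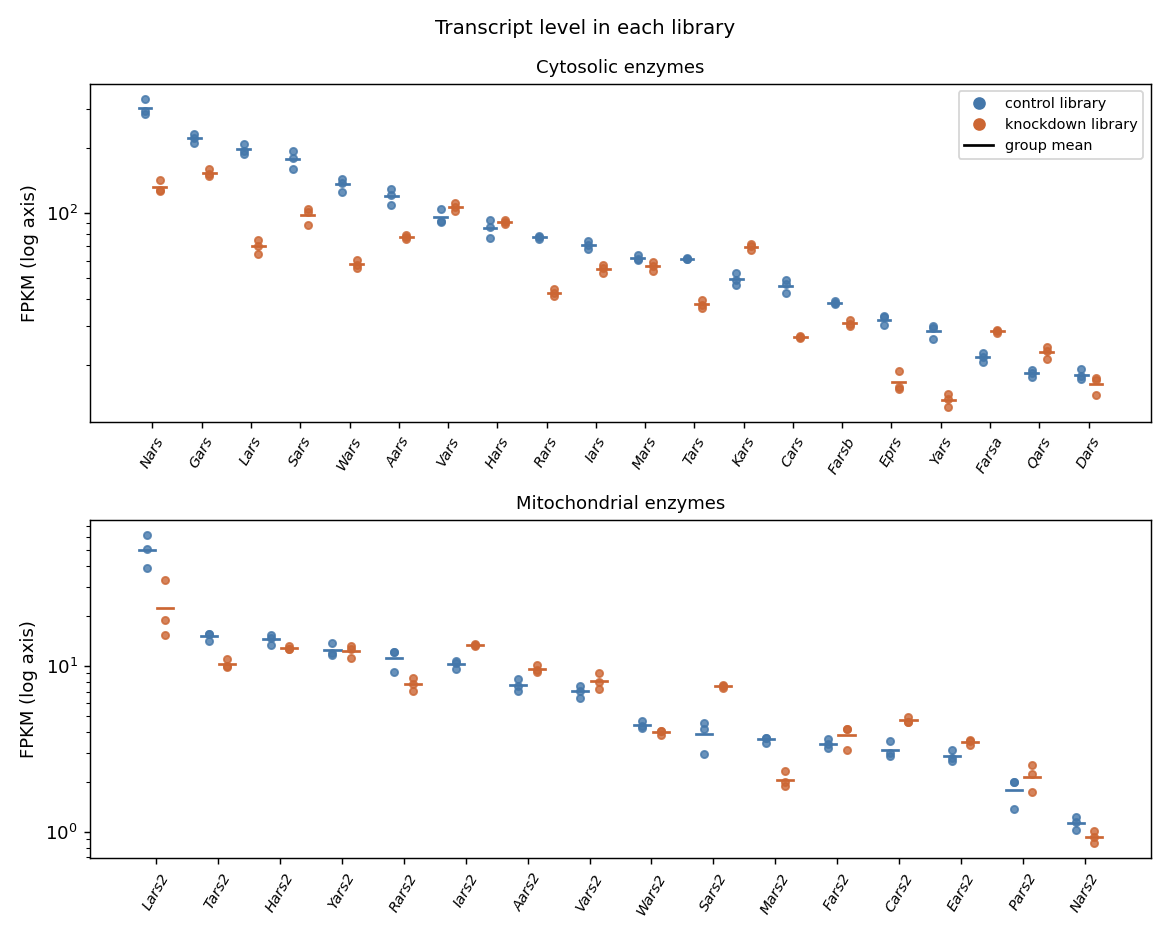
FPKM (log axis) of each enzyme in every library, cytosolic genes above and mitochondrial genes below, ordered along the x axis by control mean. Points are libraries and lines are group means. Nars is the most abundant cytosolic transcript in the control libraries at 304.4 FPKM of the table's lengths, and the mitochondrial transcripts run from 50.2 FPKM for Lars2 to 1.13 for Nars2.

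Each value after ± is an SD over the 3 libraries of a group, and each SE belongs to the fitted log2 change of FPKM + 1. These are bulk samples, so fewer cells of a kind and less RNA per cell cannot be told apart. Some markers of other cell types moved with the groups. The summed level of 6 mesenchyme markers was 413.1 to 470.7 FPKM in the control and 999.3 to 1140.0 in the knockdown libraries, that of 4 duct markers was 681.2 to 848.8 against 352.2 to 391.4, and that of 5 macrophage markers was 16.1 to 22.5 against 4.91 to 7.03. The macrophage sum is carried by Cd68, which fell from 16.5 to 2.27 FPKM, whereas Lyz2 rose from 1.74 to 3.62 and Adgre1 was listed at 0 throughout. The acinar marker Cela1 rose from 0.108 to 1.93 FPKM, and the 10 beta-cell markers together went from 2.91 to 4.70 in control to 8.19 to 9.85 in knockdown libraries. Their part in the results on the synthetases was not tested. Recovered read totals were alike, from 14614737 to 16030939 per library, and the member with the fewest reads in any library had 68.

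Leucine, asparagine and tryptophan had the enzymes whose transcripts fell furthest. Lars (ENSMUSG00000024493, chromosome 18, 42202350 to 42262122, minus strand), the leucine enzyme that is also known as a leucine sensor for mTORC1, read 208.5, 187.6 and 193.2 FPKM in the controls and 70.6, 64.7 and 75.2 in the knockdown libraries. Its mean fell from 196.4 ± 10.8 to 70.1 ± 5.25 FPKM, a log2 change of -1.47 (SE 0.0802, limma adjusted p = 5.5e-06). Every knockdown library was thus far below every control library. Nars (ENSMUSG00000024587, chromosome 18, 64499665 to 64516557, minus strand) charges asparagine and was, with the table's lengths, the most abundant synthetase transcript of the control cells. Per length of the coding transcript its control mean was 291.9 and that of Gars 289.0, with Gars the higher in control libraries 2 and 3. Nars read 334.8, 293.5 and 284.8 FPKM against 127.3, 126.0 and 141.0, a log2 change of -1.20 (SE 0.0871, limma adjusted p = 1.72e-05). Wars (ENSMUSG00000021266, chromosome 12, 108860030 to 108894174, minus strand), the tryptophan enzyme, is also known as a gene that interferon gamma induces. Its FPKM was 143.3, 137.4 and 125.2 against 60.8, 57.3 and 55.8, a log2 change of -1.21 (SE 0.0754, limma adjusted p = 9.32e-06). The Wars row overlaps Wdr25 (3.02 FPKM in control) on the genome, and no source says whether counting used strand, so such neighbours could share reads.

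Serine, arginine and cysteine enzymes, and the joined enzyme for glutamate and proline, were also lower. Sars (ENSMUSG00000068739, chromosome 3, 108424865 to 108445209, minus strand), which also charges the selenocysteine tRNA with serine, read 192.9, 178.7 and 159.2 FPKM in the controls and 100.6, 104.3 and 87.6 in the knockdown libraries. Its log2 change was -0.85 (SE 0.0978, limma adjusted p = 0.000149), and the groups did not overlap. Eprs (ENSMUSG00000026615, chromosome 1, 185363044 to 185428360, plus strand) carries the glutamate and proline enzymes in 1 polypeptide, and it read 33.1, 30.3 and 33.3 FPKM against 15.7, 15.4 and 18.7. That is 51.6% of the control mean, a log2 change of -0.92 (SE 0.0882, limma adjusted p = 6.33e-05). The length used for Eprs in the table was 18102 bases, 3.69 times its longest coding transcript in GENCODE M21, which lowers its FPKM in every library and leaves its change as it is. Rars (ENSMUSG00000018848, chromosome 11, 35808381 to 35834506, minus strand), the arginine enzyme of the multisynthetase complex, went from 77.5, 75.5 and 78.4 FPKM to 42.7, 41.2 and 44.8, a log2 change of -0.83 (SE 0.0637, limma adjusted p = 2.3e-05). Cars (ENSMUSG00000010755, chromosome 7, 143557230 to 143600090, minus strand), for cysteine, went from 46.8, 49.1 and 42.6 FPKM to 26.5, 26.9 and 27.2, a log2 change of -0.75 (SE 0.0714, limma adjusted p = 5.96e-05). In both genes the knockdown libraries lay within a few FPKM of each other and well under the controls.

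Yars, Tars, Aars, Gars and Iars fell as well and share a short run of letters at their promoters, shown next. Yars (ENSMUSG00000028811, chromosome 4, 129189760 to 129219607, plus strand), the tyrosine enzyme, read 30, 29.6 and 26.3 FPKM in the controls and 14.6, 13.9 and 12.8 in the knockdown libraries, a log2 change of -1.01 (SE 0.0796, limma adjusted p = 2.67e-05). On the opposite strand Yars overlaps C77080, which is more abundant than Yars at a mean of 34.7 FPKM in control and 29.1 in knockdown libraries, so Yars could share reads with it. Tars (ENSMUSG00000022241, chromosome 15, 11382301 to 11399665, minus strand), for threonine, read 61.1, 61.5 and 62.2 FPKM against 37.6, 36.5 and 39.5, a log2 change of -0.69 (SE 0.0624, limma adjusted p = 4.88e-05). The control libraries of Tars differed by hardly more than 1 FPKM. Aars (ENSMUSG00000031960, chromosome 8, 111033144 to 111057664, plus strand), for alanine, read 129.3, 120.8 and 109.2 FPKM against 77.6, 79.2 and 75.8, a log2 change of -0.62 (SE 0.0779, limma adjusted p = 0.000242). Gars (ENSMUSG00000029777, chromosome 6, 55038007 to 55079500, plus strand), whose gene supplies the glycine enzyme of both compartments, read 230.1, 222.4 and 209.2 FPKM against 158.7, 150.3 and 147.6. Its mean in the knockdown libraries was 69.0% of control, a log2 change of -0.53 (SE 0.0708, limma adjusted p = 0.000315). Iars, for isoleucine, fell from a mean of 71.1 ± 2.77 to 55.2 ± 2.31 FPKM. None of these 5 genes had a knockdown library at or above a control library.

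The promoters of 27 members, 13 cytosolic and 14 mitochondrial, were found in a RefSeq set (build GRCm38.p6) that holds 250 bases before and 50 after each start. The letters TGATGNAA, a form of the C/EBP-ATF response element that ATF4 is known to bind, occurred on either strand in 5 of the 13 cytosolic promoters and in 0 of the 14 mitochondrial ones, beside 4.51% of all 27025 genes in the set. The 5 were those of Aars (with 2 matches), Gars, Iars, Tars and Yars. All 5 transcripts fell, beside 13 of the 20 cytosolic members and 29.1% of all tested genes. Of the other 8 cytosolic promoters, those of Eprs, Sars and Farsb also belong to genes that fell, so the letters were not shared by all of them. Members without a promoter in the set could not be searched. No promoter of Lars, Wars or Nars, the genes with the deepest falls, is among those named here. That does not mean that their promoters were searched and lacked the letters. The E-box CACGTG occurred in the cytosolic promoters of Aars, Farsb, Iars and Tars and in the mitochondrial promoter of Ears2, beside 8.09% of all genes, and the cyclic AMP element TGACGTCA occurred in none of the 27, beside 2.03%. A match is a run of letters and no measured binding site. The 5 promoters are shown because they carry this match: each sequence runs 5′ to 3′ on the strand of its gene, with the TGATGNAA match in capitals, which reads as the reverse complement in all but Yars. The stretches of Aars, Gars and Tars are the 150 bases before the start, and the shorter ones are windows around a match just after it.
Aars, before the start, chr8:111033692-111033841, plus strand: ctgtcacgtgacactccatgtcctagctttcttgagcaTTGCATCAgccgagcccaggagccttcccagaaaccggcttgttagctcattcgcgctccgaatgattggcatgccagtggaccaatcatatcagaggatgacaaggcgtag
Aars, second match, chr8:111033840-111033869, plus strand: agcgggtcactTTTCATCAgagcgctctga
Gars, chr6:55037851-55038000, plus strand: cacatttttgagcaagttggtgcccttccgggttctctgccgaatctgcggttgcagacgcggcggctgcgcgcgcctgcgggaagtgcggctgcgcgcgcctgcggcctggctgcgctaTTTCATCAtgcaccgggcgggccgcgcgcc
Tars, chr15:11399659-11399808, minus strand: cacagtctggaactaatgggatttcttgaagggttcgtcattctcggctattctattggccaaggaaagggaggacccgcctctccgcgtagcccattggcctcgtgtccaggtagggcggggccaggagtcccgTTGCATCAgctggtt
Iars, chr13:49682126-49682155, plus strand: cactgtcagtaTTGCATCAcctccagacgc
Yars, chr4:129189895-129189924, plus strand: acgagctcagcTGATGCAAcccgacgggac
The upstream match lay 15 bases before the start in Tars, 30 in Gars and 112 in Aars. After the start it lay 3 bases in for Yars, 7 for Iars and 9 for the second match of Aars.

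Grouped by what is usually known of their control, the cytosolic genes divided as follows. Of 12 that are usually listed as ATF4 targets, 11 fell, 0 rose and Mars alone did not pass, with a median log2 change of -0.80. Their summed level went from 1455.0 ± 79.9 to 794.1 ± 7.32 FPKM, or 54.6% of control. Of the 8 not usually listed, Farsb and Rars fell, Farsa, Kars and Qars rose, and Dars, Hars and Vars did not pass, with a median of 0.12 and a summed level of 403.8 ± 11.7 against 408.2 ± 4.0 FPKM. Over all tested genes, 29.1% were called lower and 33.3% higher. Both lists were drawn up with earlier results of these data known, and the difference between the 2 lists was not tested. Atf4 itself read 463.4, 476.3 and 426.6 FPKM in the controls and 261.1, 272.9 and 258.9 in the knockdown libraries, a log2 change of -0.78 (SE 0.0745, limma adjusted p = 6.12e-05). The amount and activity of ATF4 protein were not measured.

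The cytosolic genes that rose were those for lysine and glutamine and 1 subunit of the phenylalanine enzyme. Kars (ENSMUSG00000031948, chromosome 8, 111993443 to 112011323, minus strand), which like Gars serves both compartments, read 52.7, 49.2 and 46.5 FPKM in the controls and 70.3, 72.0 and 67.2 in the knockdown libraries. Its log2 change was 0.49 (SE 0.0713, limma adjusted p = 0.000507), the opposite direction to Gars. Qars (ENSMUSG00000032604, chromosome 9, 108507706 to 108515941, plus strand), for glutamine, read 17.5, 18.9 and 18.3 FPKM against 24.0, 23.2 and 21.1, a log2 change of 0.31 (SE 0.0722, limma adjusted p = 0.00604). Farsa and Farsb encode the alpha and beta subunits of a single enzyme and went in opposite directions. Farsa rose from 21.6 ± 1.01 to 28.4 ± 0.527 FPKM and Farsb fell from 38.5 ± 0.643 to 31.0 ± 1.02. Which subunit is the more abundant depends on the length used: per length of the coding transcript, Farsa stood at 53.6 and Farsb at 49.5 in control, and at 70.6 and 39.9 in knockdown libraries.

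For aspartate, histidine, methionine and valine no call was made. Dars had a mean of 17.9 ± 1.02 FPKM in control and 16.2 ± 1.57 in knockdown libraries, Hars 85.3 ± 8.38 and 90.9 ± 1.70, and Vars 95.7 ± 7.15 and 106.2 ± 4.62, and in these 3 the groups overlapped. Mars had 62.0 ± 1.81 and 56.9 ± 2.71 FPKM with no overlap (limma adjusted p = 0.14). Mars lies across Ddit3 on the opposite strand, a gene whose mean went from 97.1 to 28.6 FPKM, and Hars and Hars2 overlap each other on opposite strands, so their reads may not be fully separated. The part of this in the values was not tested.

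Neither the complex nor the structural class gathered the changes into 1 direction. Of the 8 enzymes of the multisynthetase complex, Eprs, Iars, Lars and Rars fell, Kars and Qars rose, and Dars and Mars did not pass (median log2 change -0.25). Of the 12 outside it, 9 fell, 1 rose and 2 did not pass (median -0.65). Its scaffolds differed from each other: Aimp1, which binds tRNA within the complex, fell from 32.3 ± 2.33 to 18.8 ± 1.33 FPKM, Aimp2 rose from 27.7 ± 0.974 to 34.1 ± 1.64, and Eef1e1 stood at 12.4 and 12.7 FPKM without a call. By fold of the catalytic domain, 6 of 9 class I enzymes fell and 1 rose, and 6 of 10 class II enzymes fell and 2 rose, leaving out the joined enzyme Eprs. These counts also stand beside 29.1% of all tested genes called lower and 33.3% called higher.

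Mitochondrial synthetase transcripts were mostly far less abundant, with a median level of 5.71 FPKM in the control libraries against 66.5 for the cytosolic set (10 against 97.6 per length of the coding transcript). Sars2 (ENSMUSG00000070699, chromosome 7, 28741992 to 28753871, plus strand), the mitochondrial serine enzyme, rose most: it read 2.96, 4.51 and 4.17 FPKM in the controls and 7.59, 7.63 and 7.31 in the knockdown libraries, or 193.5% of control. Its log2 change of 0.82 (SE 0.122, limma adjusted p = 0.000595) was opposite to that of cytosolic Sars. Cars2 (ENSMUSG00000056228, chromosome 8, 11513977 to 11550783, minus strand), for cysteine, read 2.86, 3.00 and 3.5 FPKM against 4.92, 4.57 and 4.57, a log2 change of 0.47 (SE 0.0889, limma adjusted p = 0.00207). For Iars2 (ENSMUSG00000026618, chromosome 1, 185284726 to 185329396, minus strand), the isoleucine enzyme, FPKM was 9.62, 10.7 and 10.4 against 13.5, 13.1 and 13.4, a log2 change of 0.35 (SE 0.0673, limma adjusted p = 0.00226). Aars2 (ENSMUSG00000023938, chromosome 17, 45506841 to 45520843, plus strand), the alanine enzyme, read 7.01, 8.32 and 7.55 FPKM against 9.38, 10.1 and 9.16, a log2 change of 0.29 (SE 0.0804, limma adjusted p = 0.013). In each of these 4 amino acids the cytosolic transcript fell while the mitochondrial one rose, and no control library reached a knockdown library in any of the 4 mitochondrial genes. Cars2 overlaps Naxd and Iars2 overlaps Rab3gap2 on the opposite strand, so both values could share reads with a neighbour. The mean of Naxd was 10.8 FPKM in control and 10.1 in knockdown libraries, and that of Rab3gap2 was 11.1 and 8.41. The part of these neighbours in the values was not tested.

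The mitochondrial genes that fell were those for methionine, threonine, arginine and leucine. Mars2 (ENSMUSG00000046994, chromosome 1, 55237177 to 55248470, plus strand) charges both initiator and elongator methionine in the organelle, and read 3.69, 3.44 and 3.69 FPKM in the controls and 1.88, 1.98 and 2.32 in the knockdown libraries. Its log2 change was -0.59 (SE 0.0936, limma adjusted p = 0.000791), whereas cytosolic Mars was not called. Tars2 (ENSMUSG00000028107, chromosome 3, 95739976 to 95760206, minus strand) read 15.5, 15.5 and 14.2 FPKM against 9.87, 11 and 9.99, a log2 change of -0.51 (SE 0.0732, limma adjusted p = 0.000469). Rars2 (ENSMUSG00000028292, chromosome 4, 34614957 to 34660167, plus strand) read 12.1, 9.24 and 12.1 FPKM against 7.03, 7.78 and 8.50, a log2 change of -0.47 (SE 0.115, limma adjusted p = 0.00764). For threonine and arginine the transcripts of both compartments fell.

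Lars2 (ENSMUSG00000035202, chromosome 9, 123366927 to 123462666, plus strand), the mitochondrial leucine enzyme, varied more between replicates than the other members that were called. It read 61.2, 50.7 and 38.7 FPKM in the controls and 18.8, 33.1 and 15.3 in the knockdown libraries, with a coefficient of variation of 22.4% in control and 42.3% in knockdown. The groups did not overlap, and the log2 change was -1.18 (SE 0.266, limma adjusted p = 0.00492). In the same libraries the most abundant non-coding row, Gm23935, read 42844.4, 35178.8 and 30486.2 FPKM in control and 11936.3, 24061.0 and 9585.6 in knockdown, which is the same order of libraries within both groups. The FPKM of Gm23935 was 627 to 788 times that of Lars2 in every library, but its length is 57 bases against 11089 for Lars2. In recovered reads the gap was far smaller. Gm23935 had 39068 reads against 10854 for Lars2 in control library 1, and 10520 against 3215 in knockdown library 1. Its part in the Lars2 value was not tested.

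**Figure D3:**
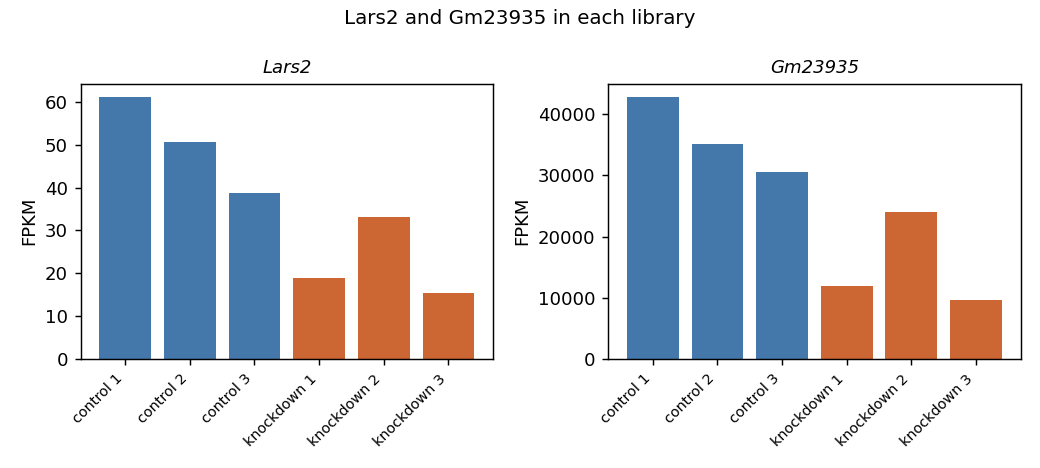
FPKM of Lars2 (left) and of the non-coding row Gm23935 (right) in each of the 6 libraries, 1 bar a library, both axes starting at 0. In both panels control 1 is the highest control bar and knockdown 2, at 33.1 FPKM for Lars2 and 24061.0 for Gm23935, is the highest knockdown bar.

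The other 8 mitochondrial genes did not pass the test. Ears2, which loads glutamate also onto the glutamine tRNA, came nearest, at 2.84 ± 0.227 FPKM in control and 3.48 ± 0.127 in knockdown libraries with no overlap (limma adjusted p = 0.051). On the opposite strand Ears2 overlaps Ubfd1, whose mean was 4.64 FPKM in control and 7.37 in knockdown libraries, so reads could be shared. The part of this in the Ears2 values was not tested. Hars2 (14.5 ± 1.08 and 12.8 ± 0.324 FPKM), Wars2 (4.41 ± 0.242 and 3.98 ± 0.132) and Nars2 (1.13 ± 0.0962 and 0.933 ± 0.0791) also had groups that did not overlap. Fars2, Pars2, Vars2 and Yars2 had means of 3.40, 1.78, 7.02 and 12.4 FPKM in control and 3.81, 2.15, 8.08 and 12.3 in knockdown libraries, and their groups overlapped.

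Setting each cytosolic transcript against its mitochondrial counterpart within a library removes any scaling of that library. Of 17 such ratios of FPKM, 11 were lower in every knockdown library than in any control library, Mars to Mars2 was higher, and 5 overlapped. The ratios are not all separate. Eprs enters with both Ears2 and Pars2, each among the 11, and Fars2 enters with both Farsa and Farsb. Groups did not overlap for 68.1% of all tested genes taken singly, and no such share was computed for ratios of other genes. With 3 libraries against 3, the smallest p of the exact two-sided permutation test is 0.1, and over the 17 ratios the smallest adjusted value was 0.142, so no ratio could pass. Sars to Sars2 changed most, from 65.1, 39.6 and 38.1 in the control libraries to 13.3, 13.7 and 12.0 in the knockdown libraries. The mean ratio of Cars to Cars2 went from 15 ± 2.42 to 5.74 ± 0.315, that of Aars to Aars2 from 15.8 ± 2.30 to 8.13 ± 0.247, and that of Wars to Wars2 from 30.8 ± 3.70 to 14.6 ± 0.713. Serine, cysteine and alanine combined a fall in the cytosol with a rise in the mitochondrial gene, whereas for tryptophan only the cytosolic transcript was called.

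For leucine both transcripts fell, as they did for threonine and arginine. The ratio of Lars to Lars2 was 3.41, 3.70 and 4.99 in the control libraries and 3.77, 1.95 and 4.92 in the knockdown libraries, and the groups overlapped. Threonine also overlapped, with mean ratios of 4.09 and 3.69. For methionine the ratio rose from 16.5, 18.7 and 16.5 to 28.8, 30 and 24.6, with the fall in Mars2. The cytosolic transcript exceeded its counterpart in all 6 libraries in 16 of the 17 ratios, and which ratio was the exception depended on the length used. With the table's lengths it was tyrosine, where Yars to Yars2 was 2.19, 2.53 and 2.21 in control and 1.31, 1.09 and 0.97 in knockdown libraries. Per length of the coding transcript the tyrosine ratio was at least 1.77 in every library, and the exception was leucine, at 0.664 in knockdown library 2.

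**Figure D4:**
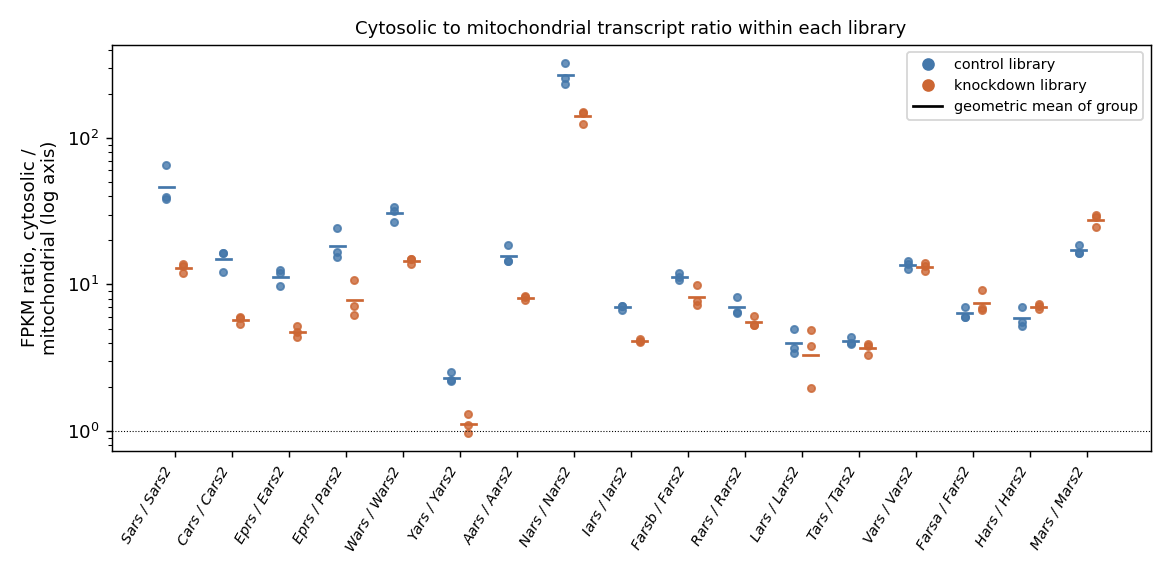
Ratio of cytosolic to mitochondrial FPKM within each library (log axis, dotted line at 1) for 17 enzyme combinations, points for libraries and lines for geometric means of a group, ordered by change. The ratios at the left fall in the knockdown libraries, Sars to Sars2 most, while Mars to Mars2 at the right rises from a mean of 17.2 to 27.8.

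Genes that work beside the synthetases moved in both directions, beside a background of 33.3% of genes called higher and 29.1% called lower. Among mitochondrial charging partners, Qrsl1, a subunit of the amidotransferase that makes glutaminyl-tRNA, rose from 3.46 ± 0.353 to 5.26 ± 0.488 FPKM, and Mtfmt, which formylates the initiator methionyl-tRNA made by Mars2, rose from 3.63 ± 0.292 to 5.28 ± 0.338. Gatc, another amidotransferase subunit, fell from 19.6 ± 1.75 to 14.3 ± 1.00, while Gatb was not called. Among 7 tested relatives, editing factors and selenocysteine enzymes, 3 rose and 3 fell, shares of 42.9% each that rest on few genes. Ptrh2, a mitochondrial hydrolase of peptidyl-tRNA, fell from 14.9 ± 0.793 to 9.33 ± 0.667 FPKM. Tarsl2, a second cytosolic threonine enzyme, rose from 2.79 ± 0.237 to 4.84 ± 0.127 FPKM while Tars fell. Sepsecs, which carries out the last step in making selenocysteinyl-tRNA, fell from 4.80 ± 0.107 to 2.99 ± 0.155 FPKM.

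Of 21 tested genes of tRNA processing and export, 8 rose and 9 fell, or 38.1% and 42.9%. Rtcb, the tRNA ligase that joins the pieces of spliced tRNAs, rose from 45.4 ± 1.39 to 95.3 ± 4.06 FPKM (limma adjusted p = 9.32e-06), and Tsen34, a subunit of the splicing endonuclease, rose from 32.7 ± 1.75 to 64.1 ± 6.06. Ssb, the La protein that binds new polymerase III transcripts, fell from 68.0 ± 6.54 to 31.7 ± 3.07. Among 22 genes of RNA polymerase III and its factors, 8 rose and 6 fell, or 36.4% and 27.3%, which is near the background of all genes. The smallest p-values there were those of Gtf3a, Polr3e and Gtf3c1, all higher, with Gtf3a going from 8.23 ± 0.883 to 16 ± 1.04 FPKM. Of 5 sensors of uncharged tRNA and their targets, Atf4, Eif2s1 and Impact fell, and Eif2ak4, the kinase GCN2 that uncharged tRNA activates, rose from a mean of 4.24 to 5.31 FPKM.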

How the data were processed

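Gene expression was measured by RNA-seq in 6 libraries, 3 control and 3 PP2Ac knockdown. Per the labels' protocols, RNA was taken with Trizol and made into TruSeq libraries. The authors deposited 1 table of FPKM per gene, and the submitters' processing notes name the builds GRCm38 and mm10. Which aligner and counter were used, and whether strand was, is not given in the sources used here. Deposited FPKM times gene length gave whole reads in each library, within a tolerance of 0.01. Median-of-ratios factors of the deposited FPKM were 1 in all 6 libraries, so the values were already on that scale. In knockdown library 1, for example, the FPKM implied a total of 15462193 reads, and 15544432 were recovered.

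Genes with a mean of at least 1 FPKM (11652) were tested with limma 3.58.1 (R 4.3.3; trend on) on the log2 of the deposited FPKM plus 1, with Benjamini-Hochberg adjustment over all of them and a threshold of 0.05. The script was also run on simulated reads, with the same setting of spread for all genes and few genes changed. Those settings differ from these data, so that run does not measure the error of the calls given here. Ratios within libraries were tested by exact permutation (scipy 1.17.1). Same-numbered libraries did not deviate together, with correlations of -0.0107, 0.159 and 0.0518, so numbers were not taken as pairs. Positions are those of the table, and 33 of 36 were the same in GENCODE M21, whose longest coding transcripts gave a second length for each member.

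Members and lists were chosen with earlier results of these data known. Full values are given for the 10 cytosolic and 8 mitochondrial members with the smallest p and for Gars, Kars, Eprs, Qars and Wars, means for the rest, at most 3 genes with the smallest p from each other list, and Ppp2ca and Atf4. Gatb, Eif2ak4, Gm23935, cell type markers and genes that overlap a member were named beyond that rule after their values were seen. Promoters came from RefSeq. A planned comparison of protein sequences was not made, and such sequences were not used here.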

Additional observations from a re-analysis of the deposited data

How the results depend on the processing

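Over 17 alternatives (pseudocount, expression floor, no trend, removal of mitochondrially encoded genes, ribosomal RNA and Gm23935, other scalings, voom on recovered reads, the replicate block, each library left out), 32 of the 36 members kept their call wherever they were tested, 0 lost one and 4 gained one in some: Mars (with the removal), Hars2 (with it, and at -0.21 without control library 1), Ears2 (0.27 without control library 2, and with a smaller pseudocount or no trend) and Vars2 (with the replicate block). Among the 17, median-of-ratios scaling used factors of 1 and repeated the main fit, so it could not change a call. The count of cytosolic genes that fell was 13, or 14 with the removal, and 3 to 5 mitochondrial genes were called in each direction. With the removal the cytosolic median was -0.65 in place of -0.57, and with single libraries left out it ranged from -0.63 to -0.53. At a floor of 5 FPKM, 2208 of all tested genes fell in place of 3388, fewer genes being tested. The replicate block gave 3919 genes higher and 3444 lower, and 13 cytosolic genes lower. The removal gave 3428 higher and 3807 lower. Scaling to recovered reads and leaving out Lars2 were chosen after seeing the data; without Lars2 the mitochondrial median was 0.12 in place of 0.05. The mitochondrial sum, 82.1% of control, was 100.5% without Lars2. With the lengths of coding transcripts, also chosen after seeing the data, the cytosolic sum was 67.5% of control in place of 64.7%. The mitochondrial sum was then 75.8% in place of 82.1%, so the 2 sets lay closer together. The fewest reads of a member in any library were 68.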
